A study of Arabidopsis thaliana with 27 samples.

Results

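The comparison described here set the 1-cell embryo (1C, Col accession) against the hybrid zygote of a Col female and a Ler male collected 24 hours after pollination (CZy24), in Arabidopsis thaliana. It used 6 of the 27 RNA-seq libraries of the series, 3 for each group, chosen by their labels, with the level of a gene taken as its FPKM (mapped fragments divided by transcript length and by the size of the library) and as 0 where a library did not list it. The 1-cell embryo is the stage after the zygote has divided, so the comparison asks how far the hybrid zygotes stood from that stage. Col zygotes of the same hour (Zy24, 3 libraries) and zygotes of the reciprocal cross, Ler female by Col male (LZy24, 3 libraries), were set beside them. All plants were grown in a greenhouse under long days at 22 °C, and no transgene or treatment is labelled. Stage and cross differ together between 1C and CZy24, since the embryos carry Col alleles from both parents and the zygotes carry Ler alleles from the father, and the 2 cannot be told apart in this comparison alone. Fragments of the hybrids were mapped to the Col-based TAIR10 build, and the part of mapping in the results was not tested. Nothing in the labels says that the 3 libraries of a group came from separate plants, so p-values weigh differences against spread between these samples. The limma tests and SEs pooled that spread over the 12 libraries of 1C, CZy24, Zy24 and LZy24. In such samples, fewer cells of a type and less RNA per cell cannot be told apart.

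After fertilization the Arabidopsis zygote inherits transcripts from the egg and sperm cells, begins to transcribe its own genome, elongates and then divides into a small apical cell and a long basal cell. The apical cell founds most of the embryo and the basal cell the suspensor. Polarity of the zygote is set by a kinase cascade through YODA, by the RWP-RK factor RKD4 and by homeobox genes of the WOX family, while auxin transport and response pattern the daughters.

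Between 13635 and 15420 genes had an FPKM of at least 1 in the 6 libraries. As estimated from low values, 1 fragment on a transcript of 1 kb was worth 0.0512 to 0.06 FPKM in 1C and 0.0564 to 0.0768 in CZy24. These ranges overlapped, with means of 0.0561 and 0.0661, and the part of depth in the results was not tested. The 1C libraries held 15056, 15420 and 15277 such genes and the CZy24 libraries 13635, 14212 and 14067. All 1C libraries lay above all CZy24 libraries, with means of 15251 ± 183 and 13971 ± 300 (SD, n = 3; exact two-sided permutation p = 0.1, the smallest that 3 against 3 can give; adjusted p = 0.125 over 5 comparisons of this kind). Listed levels summed to between 818813 and 824326 FPKM in 1C and between 904808 and 917541 in CZy24, a difference that the alternative scalings address. Markers of neighbouring cell types were low. Of 8 central cell and endosperm genes 7 were listed in any library, and their summed level was 0.81 to 8.17 FPKM in 1C and 3.66 to 9.58 in CZy24. AGL62, the 1 gene of these tested, was called lower in 1C, a call lost with a pseudocount of 5. The 5 synergid genes summed to 13.1 to 20.23 and 1.46 to 17.6 FPKM, nearly all of it FER, with the defining gene MYB98 at 0. Of 10 seed coat genes 9 were listed, at 0 to 3.72 and 0.05 to 7.15 FPKM in sum, and TT8 stood at 7.04, 7.15 and 0 in CZy24 against 0 in 1C. The 8 sperm and pollen genes summed to 16.5 to 24.4 and 19.6 to 32.4 FPKM, with DUO1 and MGH3 at 0 and 4 genes reaching 1 FPKM in each group. Of the 4 tested, 1 was higher in 1C (HAP2) and 1 lower (GEX1), beside 20.9% and 18.4% of all genes. HAP2 was listed at 0 in CZy24 and could be called only higher. The part of these markers in the results was not tested.

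Of the zygotes at 24 hours, CZy24 had the largest mean distance from the 1-cell embryo, and LZy24 the smallest. Distance was the root mean square difference in log2(FPKM + 1) from the mean of 1C over the 15456 genes tested. It was 1.69, 1.61 and 1.59 for CZy24, 1.62, 1.38 and 1.37 for Zy24 and 1.27, 1.19 and 1.14 for LZy24. The CZy24 values overlapped those of Zy24 at the top of their range and lay above every LZy24 value. CZy24 stood 0.176 farther than Zy24 (exact two-sided permutation p = 0.3) and 0.432 farther than LZy24 (exact permutation p = 0.1, adjusted p = 0.125). Each 1C library was 0.362 to 0.595 from the mean of the other 1C libraries, and the 32-cell embryo, 1.07 ± 0.00182 (SD, n = 3), was nearer to 1C than CZy24 was. At 14 hours the means were 1.58 for Col zygotes and 1.73 for both hybrids, and the egg cell was at 1.85. The filter on low values was set on 1C and CZy24, and over genes with 1 FPKM or more in at least 3 of the 12 libraries of the fit CZy24 was still 0.138 farther than Zy24 and 0.392 farther than LZy24. Mean Spearman correlation with 1C, a description across genes of libraries that share a protocol, ordered the groups the same way, at 0.726 for CZy24, 0.775 for Zy24, 0.834 for LZy24 and 0.845 for the 32-cell embryo.

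**Figure D1:**
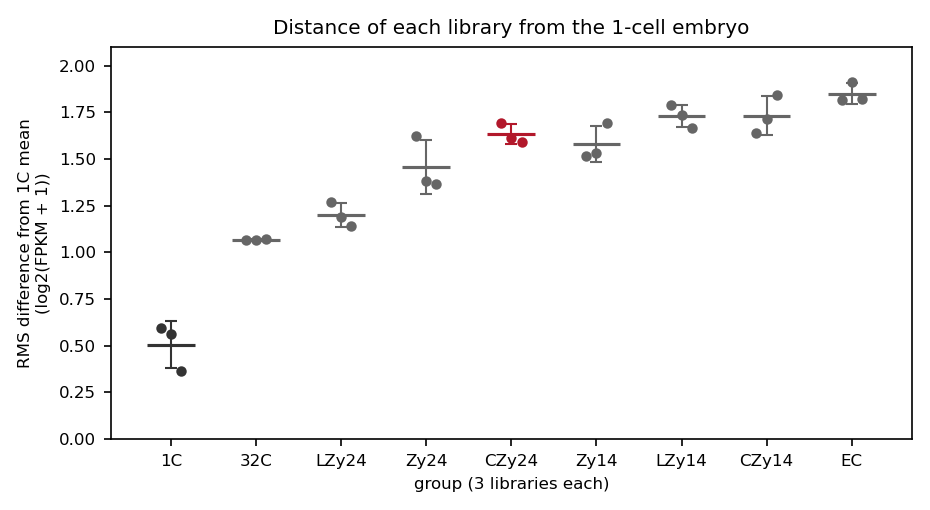
Distance of every library from the mean of the 1-cell embryo, as root mean square log2(FPKM + 1) difference over 15456 genes, by group, with points for libraries, horizontal lines for group means and whiskers for the SD; a 1C library is set against the other 1C libraries. CZy24 libraries lie between 1.59 and 1.69, above all LZy24 libraries and level with the highest Zy24 library.

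Gene by gene, 3228 of the 15456 genes were higher in 1C than in CZy24 (20.9%) and 2837 were lower (18.4%), at a Benjamini-Hochberg adjusted p under 0.05 in limma and a log2 difference of at least 1 on the log2(FPKM + 1) scale. This scale understates the change of low genes. Libraries of the groups did not overlap for 61.3% of genes, 31.0% with 1C above and 30.3% with 1C below, and the median log2 difference was -0.01. In the same fit CZy24 was higher than Zy24 for 13.9% of genes and lower for 12.5%, and higher than LZy24 for 14.8% and lower for 11.9%. The 1-cell embryo was higher than Zy24 for 17.9% and lower for 14.6%, and higher than LZy24 for 13.6% and lower for 9.96%. These contrasts share libraries, so their values are given side by side only.

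Among the most abundant transcripts called, SWEET8, RALFL18 and AT3G59480 were higher in the zygote and AT5G60390 and HOG1 higher in the embryo. SWEET8, a sugar transporter, had 1177, 1302 and 1139 FPKM in 1C and 4469.6, 4494 and 4252 in CZy24. Its groups were far apart, with a log2 difference of -1.87 ± 0.05 (SE; limma adjusted p = 4.49e-10), and Zy24 (3253 to 3493) and LZy24 (4716 to 4969) sat with CZy24. RALFL18, a small secreted peptide of the RALF family, had 467, 411 and 362 FPKM in 1C and 2760.2, 2609.7 and 2477 in CZy24. It was lower in 1C by a log2 difference of -2.67 ± 0.12 (adjusted p = 1.91e-08). AT3G59480, a pfkB-type sugar kinase, was lower in 1C too (2385 ± 149 against 5199 ± 199.5 FPKM, SD, n = 3; log2 difference -1.12 ± 0.10). In the other direction AT5G60390, a translation elongation factor of the Tu family, had 5389, 5432 and 5738 FPKM in 1C and 2605, 2538 and 2655 in CZy24, without overlap (log2 difference 1.09 ± 0.09, adjusted p = 1.51e-06). HOG1, which clears S-adenosylhomocysteine in the methylation cycle, was at 2077 ± 52.8 against 937 ± 93.4 FPKM (log2 difference 1.15 ± 0.12). Quantile normalization took AT5G60390 (0.76) and AT3G59480 (-0.93) under the fold threshold, and equal sums took AT3G59480 there too (-0.98).

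**Figure D2:**
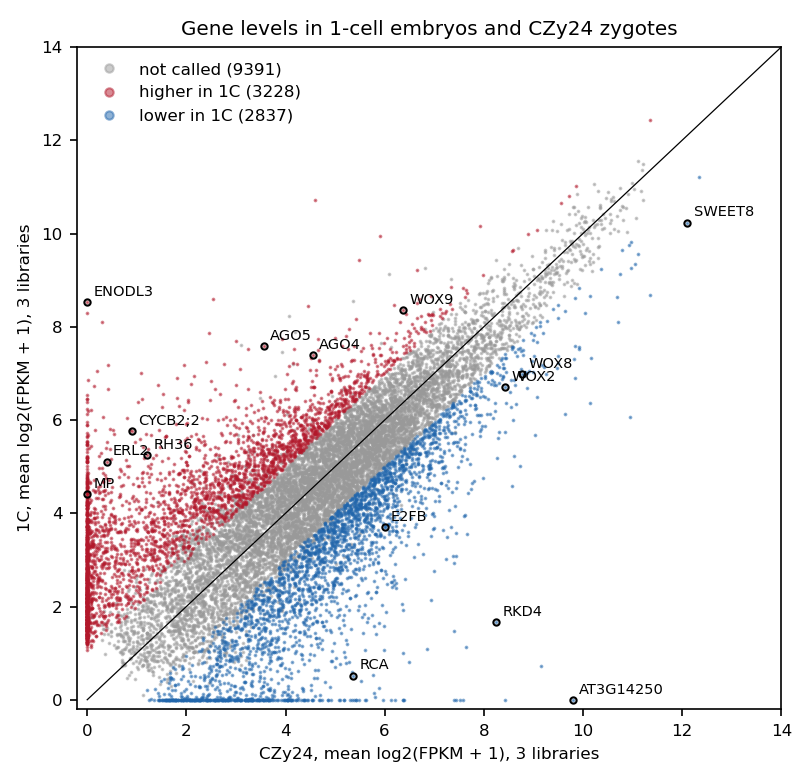
Mean log2(FPKM + 1) of each tested gene in CZy24 (horizontal axis) and in the 1-cell embryo (vertical axis), means of 3 libraries, with genes called higher in 1C in red, lower in blue and not called in grey, and a line where both levels are equal. The coloured genes make up 39.2% of the 15456 and lie on both sides of the diagonal.

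The gene lists were chosen with earlier results of these data known, so the counts of their members are descriptions only. Polarity genes were called in both directions, in shares to be read against the 20.9% higher and 18.4% lower of all genes. Of 19 tested, 6 were higher in 1C (WOX9, ERL2, ER, ERL1, BSK1 and HDG11) and 6 were lower (RKD4, SSP, WOX2, WOX8, MKK5 and AT2G01210), with a median log2 difference of -0.13 that was 0.01 when libraries were scaled to equal sums. RKD4, needed for zygote elongation and the early embryo, had 1.54, 1.72 and 3.56 FPKM in 1C and 255, 329.8 and 331 in CZy24. The groups were far apart (log2 difference -6.59 ± 0.21, adjusted p = 1.01e-09), and Zy24, at 259, 239.8 and 228, was level with CZy24 while LZy24, at 90.7, 71.7 and 77.6, lay between. SSP, the sperm-delivered kinase-like activator of the YODA cascade, was listed at 0 in every 1C library, so it could be called only lower. It had 2.47, 6.76 and 7.87 FPKM in CZy24. In Zy24 it was at 23.9, 29 and 34.3, all above CZy24 (CZy24 minus Zy24 log2 difference -2.26 ± 0.38, adjusted p = 0.000675).

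The WOX genes did not move as a block. WOX2, which acts in the apical lineage, had 120.0, 90.5 and 101 FPKM in 1C and 359, 323 and 353 in CZy24, and WOX8, which acts in the basal lineage, had 202, 83 and 119.7 against 452, 453 and 404. Both were lower in 1C without overlap, by log2 differences of -1.73 ± 0.23 (adjusted p = 5.7e-05) and -1.78 ± 0.23 (adjusted p = 4.14e-05). WOX9, their relative with roles in both lineages, went the other way, at 308, 361 and 316 FPKM in 1C and 83.8, 86 and 76 in CZy24 (log2 difference 1.99 ± 0.18, adjusted p = 2.98e-06). Its levels in Zy24 (175, 232 and 276) and LZy24 (173, 229 and 142) lay between, and CZy24 was below Zy24 by -1.44 ± 0.18 (adjusted p = 9.11e-05) and below LZy24 by -1.11 (adjusted p = 0.000608).

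The receptor kinases ERL2 and ER, which act upstream of YODA, were under 1 FPKM in CZy24. ERL2 had 30.7, 30.2 and 40.4 FPKM in 1C and 0.54, 0.04 and 0.42 in CZy24 (log2 difference 4.71 ± 0.37, adjusted p = 8.11e-07), and it was also low in Zy24, at 2.21 to 4.3. ER had 2.94, 6.36 and 6.26 in 1C and 0.19, 0.23 and 0.13 in CZy24 (log2 difference 2.33 ± 0.37, adjusted p = 0.0002). Unlike ERL2 it was above every 1C library in Zy24 (7.87, 7.41 and 8.97), and in LZy24 it stood at 0.76, 1.34 and 2.8. The Ler accession carries the mutant erecta allele for which it is named, and the part of that allele in these levels was not tested. BSK1, a membrane-bound signalling kinase acting with SSP, was at 31.5 ± 4.57 against 9.46 ± 1.97 FPKM (SD, n = 3; log2 difference 1.64 ± 0.29), and was lower still in Zy24, at 1.87 to 2.35. The kinase YDA itself was at 38.9, 34.1 and 32.3 FPKM in 1C and 37.9, 42.6 and 46.2 in CZy24, with overlapping ranges (log2 difference -0.26 ± 0.17, adjusted p = 0.212), and WRKY2, an activator of WOX8, was not called either (adjusted p = 0.558). ERL1 lost its call with a pseudocount of 0.1, ER with a pseudocount of 5, and MKK5 when a library was left out.

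**Figure D3:**
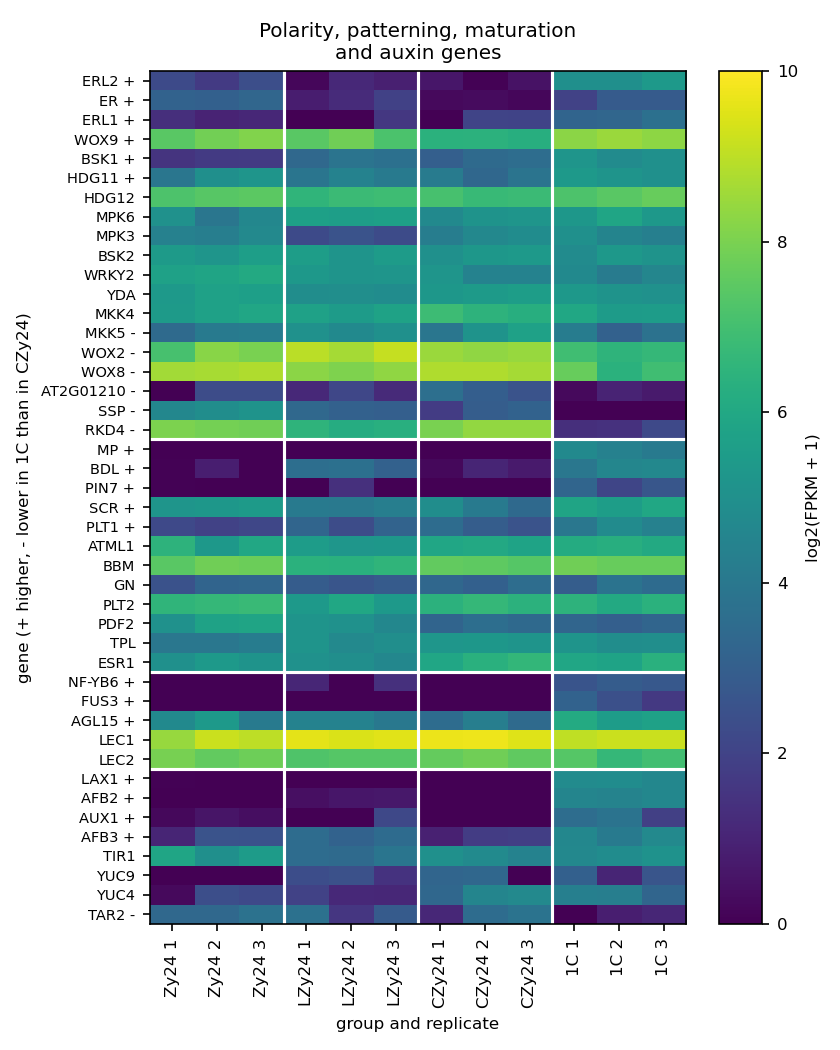
Heat map of log2(FPKM + 1), given by colour, for the tested polarity, patterning, maturation and auxin genes (rows, with white lines between the lists and + or - for genes called higher or lower in 1C) in each library of Zy24, LZy24, CZy24 and 1C (columns). RKD4 stands at 255 to 331 FPKM in CZy24 and at 1.54 to 3.56 in 1C, and the rows of MP, LAX1 and AFB2 are dark, at 0, in every CZy24 library.

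Several auxin response and transport genes were present in the 1-cell embryo and listed at 0, or nearly so, in CZy24. Of 12 patterning regulators tested, 5 were higher in 1C (MP, BDL, PIN7, PLT1 and SCR) and none lower, against 20.9% and 18.4% of all genes, with a median log2 difference of 0.22. MP, the auxin response factor of the early embryo, had 25.8, 20 and 16.1 FPKM in 1C and was listed at 0 in all CZy24, Zy24 and LZy24 libraries. Like PIN7, MP passed the filter through 1C alone and could be called only higher, so its call adds nothing to these values. Its repressor BDL had 14.8, 22.9 and 24.4 FPKM in 1C and 0.17, 1.07 and 0.66 in CZy24, without overlap (log2 difference 3.74 ± 0.39, adjusted p = 7.21e-06). BDL was likewise at most 0.8 in Zy24 but at 11.4, 12 and 7.54 in LZy24 (CZy24 minus LZy24 -2.81, adjusted p = 0.000184). The efflux carrier PIN7 was at 8.47, 3.27 and 5.31 in 1C and listed at 0 in CZy24. PLT2, a root-meristem regulator already abundant in zygotes, was at 86.8, 65.7 and 81.7 against 85.2, 99.98 and 83.9 FPKM and was not called (log2 difference -0.20 ± 0.18, adjusted p = 0.356).

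Of 8 genes for auxin synthesis, transport and reception tested, 4 were higher in 1C (LAX1, AFB2, AFB3 and AUX1) and 1 lower (TAR2, whose call was lost when a library was left out). All genes gave 20.9% higher and 18.4% lower, and the median of the 8 was 1.55. The influx carrier LAX1 had 27.1, 28.1 and 23.9 FPKM in 1C, and the receptor AFB2 had 22.2, 21.3 and 23.8. Both were listed at 0 in every CZy24 library, and at most 0.57 in Zy24 and LZy24. With AUX1, also at 0 in CZy24, they passed the filter through 1C alone and could be called only higher. The related receptor AFB3 was at 23.7, 16.4 and 24.8 FPKM in 1C and at 0.87, 2.47 and 2.61 in CZy24 (log2 difference 2.96 ± 0.45, adjusted p = 0.000141). Of 5 maturation regulators tested, 3 were higher in 1C (FUS3, NF-YB6 and AGL15) and 0 lower, against 20.9% and 18.4% of all genes. FUS3, a B3-domain regulator of embryo identity, was at 7.78, 4.41 and 2.2 FPKM and NF-YB6, the close relative of LEC1, at 4.98, 6.52 and 5.73, and both were listed at 0 in CZy24. Both could thus be called only higher, and the FUS3 call was lost with a pseudocount of 5. LEC1 itself was abundant in both groups, at 523, 592 and 584 FPKM against 832, 868 and 735, and its log2 difference of -0.52 ± 0.15 was under the fold threshold.

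Transcripts of the division machinery were the list with the largest median difference among those for cell division. Of 22 mitosis and cytokinesis genes tested, 11 were higher in 1C (AUR1, AUR2, AUR3, TPX2, MAP65-3, HIK, CYCA1;1, CYCB1;1, CYCB2;1, CYCB2;2 and CDKB2;1) and 2 lower (CDKA;1 and KEULE), against 20.9% and 18.4% of all genes, with a median log2 difference of 2.29. All 3 libraries of 1C lay above all of CZy24 for 14 members and below for 3, against 31.0% and 30.3% of all genes. MAP65-3, which bundles microtubules in the phragmoplast, had 66.8, 134 and 112 FPKM in 1C and 13.8, 13.6 and 17.5 in CZy24. The groups did not overlap (log2 difference 2.67 ± 0.31, adjusted p = 1.64e-05). The kinase AUR1 was at 89.6, 214 and 127 against 23.5, 25.8 and 48.1 (log2 difference 2.09 ± 0.42, adjusted p = 0.00109), and the cyclin CYCA1;1 at 48.7, 115 and 99.1 against 16.5, 13.5 and 12.1 (log2 difference 2.48 ± 0.30, adjusted p = 2.63e-05). KEULE, a regulator of vesicle fusion at the cell plate, was lower in 1C, at 15.3, 17.1 and 20.3 against 48.1, 52 and 37 (log2 difference -1.33 ± 0.22, adjusted p = 0.000251).

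Libraries of a group differed in these transcripts. Summed over the list, 1C held 1702, 4756 and 2873 FPKM and CZy24 held 1339, 812 and 1302. All 1C libraries were above all CZy24 libraries (exact two-sided permutation p = 0.1, adjusted p = 0.125), and Zy24 stood at 696, 1327 and 1355, on both sides of the CZy24 range. LZy24, at 3584, 3299 and 3286, was in the range of 1C and above CZy24 (exact permutation p = 0.1, adjusted p = 0.125). CZy24 against LZy24 gave 0 higher and 11 lower members with a median of -2.35, beside 14.8% and 11.9% of all genes. CZy24 against Zy24 gave 1 higher and 0 lower, beside 13.9% and 12.5% of all genes. CZy24 replicate 2 lacked several mitotic transcripts that its partners held: CYCB1;2 was at 148, 2.69 and 126 FPKM, the cytokinesis syntaxin KNOLLE at 56.2, 0.8 and 53.5, and TPX2, a spindle assembly factor, at 11.9, 0.19 and 10.05. In 1C these were at 153, 845 and 409, at 55.3, 330.4 and 172 and at 47.1, 154 and 86.4, so that replicate 1 of 1C was level with CZy24 for the cyclin and KNOLLE. Neither of these was called (adjusted p = 0.0555 and 0.169). Without CZy24 replicate 2, 8 members were higher and the median was 1.46, and without 1C replicate 2, which has the highest sum, 7 were. HIK, CYCB1;1, AUR2, CDKA;1 and CDKB2;1 lost their calls when a library was left out.

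**Figure D4:**
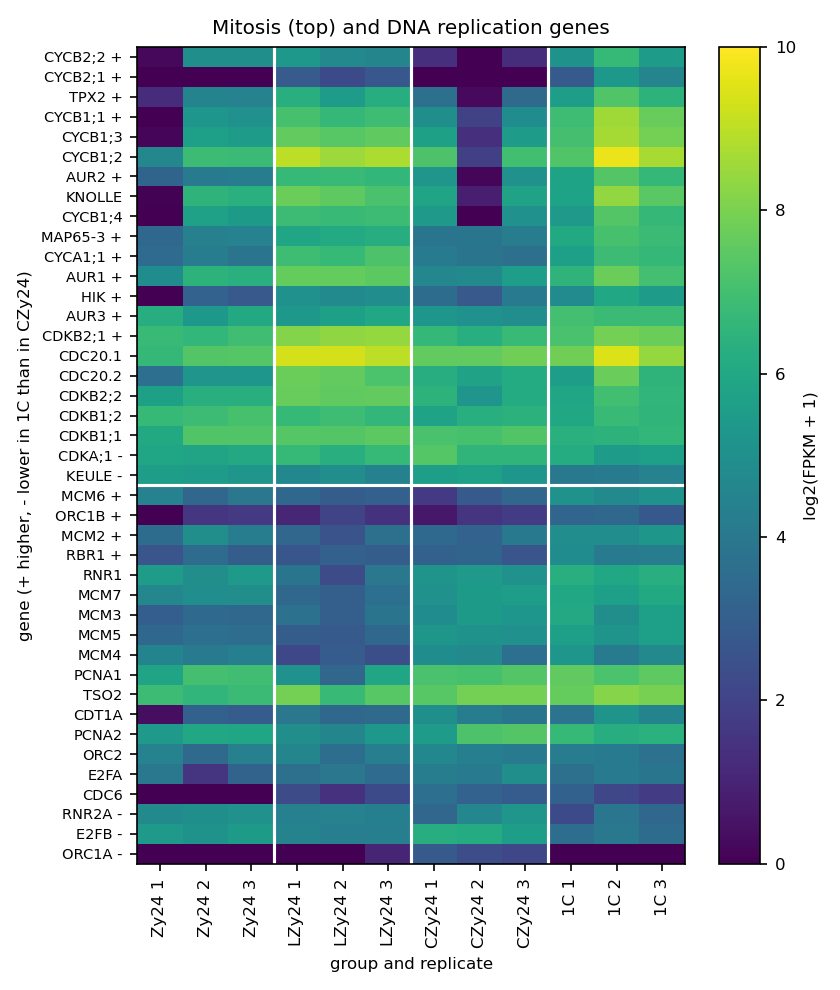
Heat map of log2(FPKM + 1), given by colour, for the 22 mitosis and cytokinesis genes (above the white line) and the 19 DNA replication genes (below it) in each library of Zy24, LZy24, CZy24 and 1C (columns), with + or - for genes called higher or lower in 1C. Replicate 2 of CZy24 is dark for KNOLLE (0.8 FPKM) and TPX2 (0.19 FPKM), and CYCB2;1 is at 0 in every CZy24 and Zy24 library.

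Promoters of 2 of the higher mitotic genes are shown because the MSA core, the element bound by MYB3R factors that time transcription to mitosis, lies in each. Each run covers the 250 bases before and 50 bases after the start of the gene in RefSeq (build TAIR10.1), on the strand of the gene, with the core (CNAACGG, either strand) in capitals. They are CYCB2;2 on the plus strand at chr4:16901346-16901645 and CYCB2;1 on the plus strand at chr2:7663805-7664104.
CYCB2;2: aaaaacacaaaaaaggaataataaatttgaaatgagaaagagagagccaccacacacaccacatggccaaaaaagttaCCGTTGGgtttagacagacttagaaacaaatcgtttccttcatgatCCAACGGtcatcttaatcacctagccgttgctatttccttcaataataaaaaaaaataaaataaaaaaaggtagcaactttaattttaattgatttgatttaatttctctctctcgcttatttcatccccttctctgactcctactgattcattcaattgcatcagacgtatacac
CYCB2;1: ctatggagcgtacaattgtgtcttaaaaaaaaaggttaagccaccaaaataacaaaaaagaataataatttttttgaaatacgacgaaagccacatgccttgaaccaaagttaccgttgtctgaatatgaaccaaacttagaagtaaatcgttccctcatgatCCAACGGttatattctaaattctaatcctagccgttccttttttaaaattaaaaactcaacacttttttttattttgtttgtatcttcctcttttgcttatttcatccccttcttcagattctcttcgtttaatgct
Both B2 cyclins were absent or nearly so in CZy24: CYCB2;2 had 33.9, 104 and 43.4 FPKM in 1C and 1.64, 0 and 1.47 in CZy24 (log2 difference 4.87 ± 1.01, adjusted p = 0.00141), and CYCB2;1 had 6.2, 39.1 and 22.3 against 0 in every CZy24 and Zy24 library. CYCB2;1 passed the filter through 1C alone and could be called only higher. CYCB2;2 held 2 cores and CYCB2;1 held 1. The core was present in 11 of the 22 promoters of the list (50%), in 7 of the 11 genes higher in 1C, 4 of the 9 not called and 0 of the 2 lower, and in 5.52% of the 27443 windows of protein-coding genes. Such a match describes the sequence and is not a site of binding.

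DNA replication genes were called about as often as all genes were. Of 19 tested, 4 were higher in 1C (MCM2, MCM6, ORC1B and RBR1) and 3 lower (ORC1A, E2FB and RNR2A), shares near the 20.9% and 18.4% of all genes, with a median of 0.22. MCM6, a subunit of the replicative helicase, had 33, 26 and 34.6 FPKM in 1C and 2.22, 6.16 and 8.89 in CZy24, without overlap (log2 difference 2.39 ± 0.41, adjusted p = 0.000397). E2FB, an activator of S-phase genes, had 11.1, 15 and 10.4 against 74.3, 69.7 and 48.3 (log2 difference -2.30 ± 0.22, adjusted p = 4.66e-06). Zy24, at 34.1 to 43.1, and LZy24, at 18.4 to 20.9, lay between. The origin recognition subunit ORC1A was listed at 0 in 1C and Zy24 and stood at 6.04, 4.16 and 3.36 FPKM in CZy24. It could thus be called only lower in 1C. Set against LZy24, CZy24 was higher for 10 members and lower for 0, against 14.8% and 11.9% of all genes, with a median of 1.23. Set against Zy24, CZy24 was higher for 7 and lower for 1, against 13.9% and 12.5% of all genes. The medians of the replication list and the mitosis list thus had opposite signs in the contrast of the reciprocal crosses. The RNR2A call was lost when a library was left out, and those of ORC1A and ORC1B with a pseudocount of 5. E2F elements (TTTCCCGC or TTTGGCGC, either strand) lay in 9 of the 19 promoter windows (47.4%) and in 1.21% of all windows.

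Among 14 D-type cyclins and inhibitors of cyclin-dependent kinases tested, 3 were higher in 1C (CYCD6;1, KRP3 and KRP6) and 2 lower (CYCD4;1 and KRP2, the latter lost with a pseudocount of 5), again near the 20.9% and 18.4% of all genes. CYCD6;1 had 8.88, 10.5 and 12.8 FPKM in 1C and was listed at 0 in CZy24 and Zy24, whereas LZy24 held 4.96, 3.82 and 2.49. It passed the filter through 1C alone and could be called only higher. CYCD4;1 had 13.4, 7.01 and 11.4 in 1C against 64.7, 50.3 and 74.1 in CZy24 (log2 difference -2.49 ± 0.29, adjusted p = 1.77e-05). It was low in Zy24, at 8.02 to 12.3, so CZy24 stood above the Col zygote (log2 difference 2.61 ± 0.29, adjusted p = 3.59e-05). Of 9 H3 histone genes tested 0 were higher and 1 lower (AT5G10980), and of 8 H4 genes 0 were higher and 1 lower (AT1G07660). These counts too are to be read against the 20.9% and 18.4% of all genes. All 8 H4 genes lay below CZy24 in every library, against 30.3% of all genes, with a median of -0.65. AT1G07660 had 37.8, 45.1 and 43 FPKM in 1C against 153, 131 and 114 (log2 difference -1.63 ± 0.14). H4 genes are alike in sequence, and the split of fragments between them is uncertain and was not tested.

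Ribosome biogenesis genes were higher in the 1-cell embryo or not called. Of 17 tested, 8 were higher (FIB1, NOP56, AT3G15460, AT1G52930, RH36, TOZ, YAO and AT2G40360) and 0 lower, against 20.9% and 18.4% of all genes, with a median of 1.00. All libraries of 1C lay above CZy24 for 15, against 31.0% of all genes. NOP56, a core protein of box C/D particles that guide rRNA methylation, had 462, 455 and 454 FPKM in 1C and 187, 188 and 193 in CZy24. The spread within groups was small beside that step (log2 difference 1.27 ± 0.07, adjusted p = 7.47e-08), and Zy24, at 251 to 263, and LZy24, at 270.2 to 283, lay between. The nucleolin gene NUC-L1, at 827 ± 15.9 against 413 ± 15.8 FPKM (SD, n = 3), had a log2 difference of 0.999, just under the threshold. RH36, a DEAD-box helicase of rRNA processing, had 29.4, 38.9 and 44.5 FPKM in 1C and 2.07, 1.36 and 0.7 in CZy24 (log2 difference 4.04 ± 0.32, adjusted p = 8.59e-07). Zy24 (20.16, 36.3 and 30.5) and LZy24 (27.3, 20.19 and 30.6) overlapped 1C, and CZy24 was the lowest group. Calls of FIB1, TOZ, YAO and AT2G40360 were lost when a library was left out. Cytosolic ribosomal protein genes did not follow: of 273 tested 13 were higher and 15 lower, against 20.9% and 18.4% of all genes, with a median of -0.11. Scaled to equal sums, 15 were higher and 12 lower, with a median of 0.03.

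A pair of the 8 higher genes rest on a pattern across libraries. AT1G52930, a Brix-domain protein, had 305, 256 and 269 FPKM in 1C and 0.39, 0.2 and 0.11 in CZy24 (log2 difference 7.82 ± 1.51, adjusted p = 0.000854), and AT3G15460, also of the Brix family, had 63.1, 77.7 and 80 against 0, 0 and 0.15. Both were under 1 FPKM in Zy24, and in LZy24 replicate 2 alone of that group (AT1G52930 at 213, 0 and 259, AT3G15460 at 40.9, 0 and 54.7). That spread within LZy24 entered the pooled SE of both genes. A search made after these values were seen found 9 genes at no more than 0.61 FPKM in those 7 libraries and at least 5 in 1C, CZy14 and the other LZy24 libraries: AT1G52930, AT3G15460, IMP4, MEE49, PFC1, DIM1B, FIO1, AT3G13180 and AT5G40530. The 18S rRNA gene AT3G41768 moved with the same libraries, at 1577, 1619.8 and 1829 FPKM in 1C, 22.1, 25.2 and 22.5 in CZy24, 6.83, 4.79 and 13.7 in Zy24 and 791, 5.79 and 621 in LZy24. Of the 9 genes, IMP4 and MEE49 are also annotated as rRNA processing proteins of the Brix family, and PFC1 and DIM1B as rRNA adenine dimethylases. AT3G13180 is annotated as a NOL1/NOP2/sun protein, and FIO1 and AT5G40530 as methyltransferases. The parts of library preparation and of data processing in these levels, and so in the calls of both Brix genes above, were not tested. The promoters of both Brix genes are shown because each carries a telo-box (AAACCCTA, either strand, in capitals), an element common in promoters of genes for ribosome synthesis. AT1G52930 lies on the plus strand at chr1:19710929-19711228 and AT3G15460 on the minus strand at chr3:5216212-5216511, with the same build and window as above.
AT1G52930: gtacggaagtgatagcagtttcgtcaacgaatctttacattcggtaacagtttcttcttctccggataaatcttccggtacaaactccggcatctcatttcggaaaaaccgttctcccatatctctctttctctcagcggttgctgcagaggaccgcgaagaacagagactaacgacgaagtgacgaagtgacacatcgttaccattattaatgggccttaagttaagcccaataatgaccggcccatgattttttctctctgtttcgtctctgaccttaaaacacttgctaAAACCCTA
AT3G15460: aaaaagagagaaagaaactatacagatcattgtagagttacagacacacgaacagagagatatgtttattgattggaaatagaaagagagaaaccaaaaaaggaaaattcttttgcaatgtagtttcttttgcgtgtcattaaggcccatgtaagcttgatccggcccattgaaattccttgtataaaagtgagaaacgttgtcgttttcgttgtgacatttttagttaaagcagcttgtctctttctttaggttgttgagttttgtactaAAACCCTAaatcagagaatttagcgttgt
Both printed telo-boxes lie after the start of the gene, at offsets of 42 and 21 bases. The telo-box was in 9 of the 17 windows of the list (52.9%) and in 6.22% of all windows. It was in 6 of the 8 genes higher in 1C and 3 of the 9 not called. The site II element TGGGCC, on either strand, was in 12 of the 17 (70.6%) and in 15.5% of all windows.

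**Figure D5:**
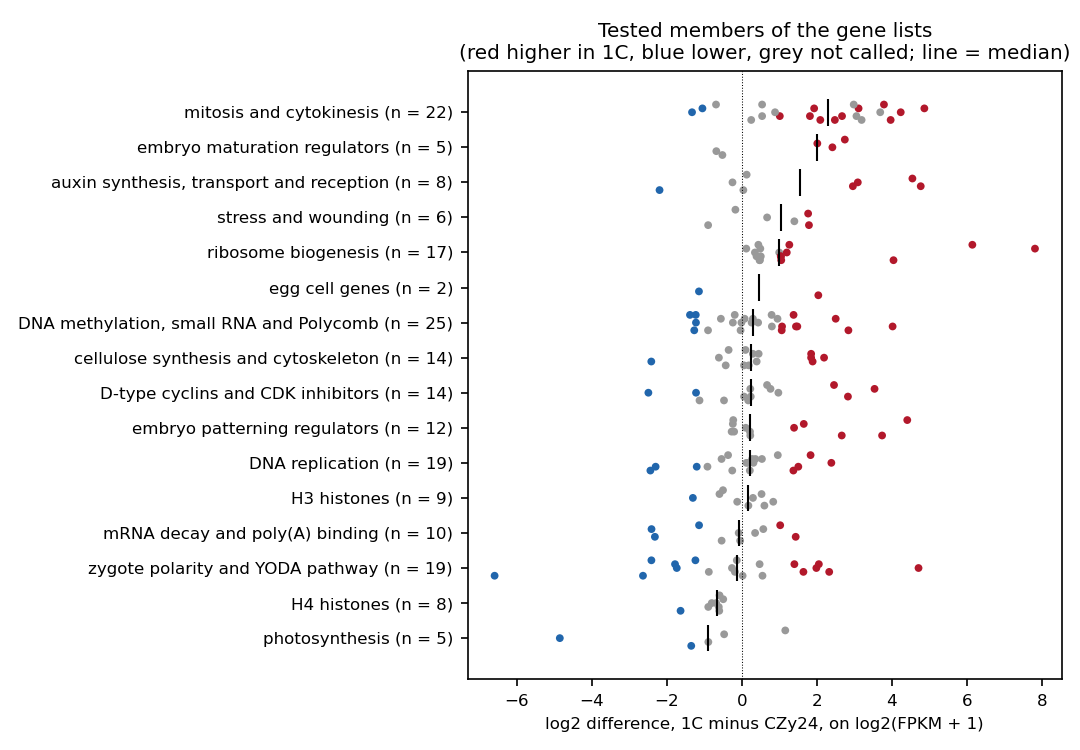
Log2 difference (1C minus CZy24, log2(FPKM + 1)) of each tested member of the gene lists, with points for genes (red called higher in 1C, blue lower, grey not called), upright lines for list medians and a dotted line at 0. The mitosis list has its median at 2.29 and the ribosome biogenesis list at 1.00, while H4 histones lie below 0.

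Genes of DNA methylation, small RNA and Polycomb pathways included large differences among Argonautes. Of 25 tested, 8 were higher in 1C (AGO4, AGO5, AGO1, ROS1, CMT2, DCL3, RDR2 and VRN2) and 4 lower (CLF, DCL1, DME and LHP1), against 20.9% and 18.4% of all genes. The median was 0.30, and without 1C replicate 2 the counts were 7 and 2. AGO4, the effector of RNA-directed DNA methylation, had 165, 158 and 177 FPKM in 1C and 29.1, 20.3 and 18.9 in CZy24 (log2 difference 2.84 ± 0.20, adjusted p = 3.09e-07). It was in the same range in Zy24 (24.2 to 31.6) and LZy24 (20.5 to 24.1). AGO5 had 162, 190.0 and 222 against 7.89, 14.8 and 10.6 (log2 difference 4.02 ± 0.27, adjusted p = 2.45e-07), yet its mean in CZy14 was 256. ROS1, a DNA demethylase, was at 4.78, 9.21 and 6.7 FPKM against 0.1, 0.52 and 0.49 (log2 difference 2.50 ± 0.34, adjusted p = 5.5e-05), and CZy24 was below both Zy24 (-1.68 ± 0.34, adjusted p = 0.00201) and LZy24 (-1.88, adjusted p = 0.00102). CLF, a Polycomb histone methyltransferase, ran the other way, at 18.7, 16.4 and 15 against 47.5, 45 and 42.2 (log2 difference -1.38 ± 0.22, adjusted p = 0.000202). MET1, the maintenance methyltransferase, was at 34.6, 32.2 and 30.5 against 24.7, 17.5 and 13.8 and was not called (adjusted p = 0.0803). AGO1, DCL1, DME, LHP1, RDR2 and VRN2 lost their calls when a library was left out, and CMT2 with a pseudocount of 5 or under quantile normalization (log2 difference 0.66, adjusted p = 0.218).

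Counts of the short lists that follow are to be read against the 20.9% higher and 18.4% lower of all genes. Of 10 genes for mRNA decay and poly(A) binding tested, 2 were higher in 1C (PAB4 and PAB8) and 3 lower (CAF1A, CAF1B and DCP2). The calls of PAB4 and CAF1B were lost when a library was left out. The decapping enzyme DCP2 had 20.7, 28 and 19.5 FPKM in 1C and 99.7, 133 and 141 in CZy24, without overlap (log2 difference -2.41 ± 0.18, adjusted p = 7e-07). The poly(A)-binding gene PAB8 was at 143, 156 and 149.8 against 50, 58.9 and 55.2 (log2 difference 1.44 ± 0.16, adjusted p = 1.09e-05). Of 14 cellulose and cytoskeleton genes, 4 were higher (CESA6, KOR1, COB and ACT11) and 1 lower, CESA2, a cellulose synthase at 4.58, 4.92 and 5.86 FPKM against 24.9, 33.3 and 37.5 (log2 difference -2.41 ± 0.25, adjusted p = 7.35e-06). CESA6 of the same enzyme family was at 7.73, 11 and 6.42 against 0, 2.56 and 3.68, and at 16.1 to 34.5 in Zy24, and its call was lost with a pseudocount of 5. Of 5 photosynthesis genes 0 were higher and 2 lower (RCA and CAB1, the latter lost when a library was left out). RCA, the activase of Rubisco, was at 0.51, 0.75 and 0.11 FPKM in 1C and 37.2, 41.1 and 42.8 in CZy24, and at 40 to 66.5 in Zy24 and LZy24 (1C minus CZy24 log2 difference -4.85 ± 0.24, adjusted p = 3.04e-08). Of the 7 egg cell genes 2 were tested. EC1.1 was at 5.57, 1.24 and 3.73 in 1C and listed at 0 in CZy24, so it could be called only higher. EC1.5 was lower in 1C, at 13, 21.2 and 23 against 43.4, 43.5 and 39.5. The EC1.5 call was lost without 1C replicate 1 and at equal sums, and both calls with a pseudocount of 5.

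Families drawn by product description are set against the 20.9% of all genes higher in 1C and the 18.4% lower. Of 27 kinesins tested 11 were higher in 1C and 4 lower (median 0.91), of 236 pentatricopeptide repeat proteins, which process organelle RNA, 84 were higher and 28 lower (median 0.41), and of 58 heat shock proteins 14 were higher and 6 lower (median 0.76). Of 220 F-box genes tested among 519, 37 were higher and 77 lower (median -0.58), and of 59 respiratory chain genes 4 were higher and 15 lower (median -0.47). The median over all genes was -0.01.

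The largest differences included genes with no part in the lists. ENODL3, an early nodulin-like protein, was at 238, 715 and 297 FPKM in 1C and listed at 0 in CZy24. HB4, a homeodomain-leucine zipper factor, was at 93.5, 99 and 71.3 in 1C and listed at 0 in all CZy24, Zy24 and LZy24 libraries, and NF-YA3, a CCAAT-binding subunit, at 85.2, 73.7 and 104 against 0. Of the 12 largest, 4 belong to the 9 genes above. Of genes lower in 1C, AT3G14250 was listed at 0 in 1C and Zy24, at 912, 862 and 896 FPKM in CZy24 and at 799.6, 618 and 591 in LZy24. AT5G33390 was likewise high in both hybrids and low in Zy24, at 1.34, 0.74 and 1.62 in 1C, 211, 184 and 202 in CZy24, 1.24 to 3.16 in Zy24 and 231 to 249 in LZy24 (1C minus CZy24 log2 difference -6.50 ± 0.26, adjusted p = 6.99e-09). By contrast AT3G58250 was high in the Col zygote as well (484 to 793 FPKM), at 0, 0 and 3.48 in 1C and 384, 678 and 714 in CZy24. AT1G63110 was low in CZy24 alone among the 4 groups, at 24.4, 25.4 and 24.6 in 1C, 0.33, 0.2 and 0.24 in CZy24, 44 to 54.2 in Zy24 and 9.91 to 12.9 in LZy24 (CZy24 minus Zy24 -5.36 ± 0.26, adjusted p = 1.04e-07).

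In all, 250 genes had at least 5 FPKM in every 1C library and were listed at 0 in every CZy24 library, with a median level of 13.2 in 1C. Of these, 79 were also listed at 0 in all Zy24 libraries and 32 in all LZy24 libraries, 32 had at least 5 FPKM in all Zy24 and 71 in all LZy24, and 190 had at least 5 in every 32-cell library. The reverse class held 106 genes, with a median of 15.7 in CZy24, of which 32 were listed at 0 in all Zy24, 32 had at least 5 FPKM in all Zy24 and 33 in all LZy24, and 9 had at least 5 in every 32-cell library. Among the 106, 14 were under 1 FPKM in all 15 Col libraries of the series, and 7 of those 14 had at least 5 in all LZy24 libraries. A listed 0 can be a failed estimate, and no fold is given for these genes, though list medians include their values on the log2(FPKM + 1) scale.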

How the data were processed

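Messenger RNA was captured with Dynabeads from isolated cells and embryos and amplified with SMART-Seq v4 before library construction, per the labels' protocols, so each level has passed through amplification from little RNA. The authors deposited FPKM per gene for each library, listing only genes above 0; TopHat2, RSEM and TAIR10 are named in the submitters' processing notes, without versions. Read counts and mapped depth were not used here, and depth was judged from the steps of low FPKM values. Amplified fragments are not independent molecules.

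An unlisted gene was set to 0. A gene was kept when 3 or more of the 6 libraries of 1C and CZy24 gave it 1 FPKM or more (15456 genes). A gene at 0 in every library of a group was kept through the other group alone. Such a gene could be called only as higher in that other group. Levels were tested as log2(FPKM + 1) with limma 3.58.1 (R 4.3.3; trend and robust empirical Bayes) in 1 fit over the 12 libraries of 1C, CZy24, Zy24 and LZy24, with Benjamini-Hochberg adjustment over all genes kept; adjusted p-values in the text come from it unless an exact permutation test is named. Calls needed an adjusted p under 0.05 and a log2 difference of at least 1. The fit was tested on simulated data. Single values per library were compared with exact two-sided permutation tests (scipy 1.17.1), adjusted over 5 comparisons. The genes named were list members, the 12 largest called differences in each direction without overlap, the 6 highest genes present in a group and at 0 in the other, the 6 most abundant called genes each way and the 5 largest differences each way between CZy24 and Zy24; those most informative are printed. The members and lists were chosen with earlier results of these data known. Promoters came from RefSeq TAIR10.1, matched by locus (24511 of 24607 genes matched). Alternatives covered pseudocounts, filters, scalings, samples in the fit, a replicate block and each library left out. No transcript isoform, allele or read was analysed.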

Additional observations from a re-analysis of the deposited data

Results flagged for a closer look

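The step from CZy24 to 1C and the step from LZy24 to 1C end at the same embryo libraries, so the difference between the steps equals CZy24 minus LZy24, which was tested in limma with Benjamini-Hochberg adjustment. For 35 list members called between 1C and CZy24 this difference was called as well, and its log2 value on the log2(FPKM + 1) scale follows each gene but 3. Both contrasts use the CZy24 libraries, which favours a call in both, so the number 35 is a description only. Over all genes, 26.7% were called between CZy24 and LZy24. In cell division, CZy24 was below LZy24 for CYCA1;1 (-3.03), CYCB2;2 (-3.96), CDKB2;1 (-1.72), AUR1 (-2.60), AUR2 (-3.20), TPX2 (-3.55), MAP65-3 (-2.10) and KRP2 (-1.78), and above it for ORC1A (2.09) and E2FB (1.66). Among polarity, patterning and auxin genes it was below for ER (-1.08), WOX9 (-1.11), BDL (-2.81) and AFB3 (-1.86) and above for RKD4 (1.91) and AT2G01210 (1.57). Among genes for DNA methylation, small RNA and Polycomb it was below for ROS1 (-1.88) and VRN2 (-1.17) and above for DCL1 (1.44) and CLF (1.69), and above for CAF1B (1.53) and DCP2 (1.195) of mRNA decay. In ribosome biogenesis it was below for AT3G15460 (-3.66), AT1G52930 (-4.96), RH36 (-3.53) and YAO (-1.04). LZy24 replicate 2 was at 0 for AT3G15460 and AT1G52930, unlike its partners. Among cell wall and cytoskeleton genes it was below for CESA6 (-1.93), KOR1 (-1.39) and ACT11 (-1.26) and above for CESA2 (1.16). The remaining values were HSP90.1 (1.58) and GEX1 (3.13). CYCB2;1, CYCD6;1 and HAP2 were listed at 0 in every CZy24 library and present in LZy24, so no log2 value is given (limma adjusted p = 0.00164, 0.000127 and 0.00259). Crosses differ in maternal parent between these groups, and what underlies these differences was not tested.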

How the results depend on the processing

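Across 16 settings no call of a named gene reversed its direction, though small differences that were not called could change sign. Of 244 named genes 134 were called, beside 39.2% of all genes tested. Many of the 244 were named because they were called, so this count is a description only. Of the 134, 40 lost the call under some setting, and 20 other named genes gained it. The counts of genes higher and lower in 1C stayed within 1.5 times of 3228 and 2837 under each alternative: they were lowest, at 2173 and 2174, with a pseudocount of 5, and were 3574 and 3133 without a filter. They were 2852 to 3210 and 2596 to 2958 with a library left out. Scaling to equal sums shifted the median by 0.135 and gave 3600 higher and 2447 lower. Deviations of same-numbered 1C and CZy24 libraries had correlations near 0 (r = -0.0237, -0.0575 and -0.0389), as had those of different numbers (-0.0182 to 0.0562). Such correlations across genes cannot tell whether same-numbered libraries share a collection or batch. A replicate block gave 3213 higher and 2825 lower. Calls between CZy24 and Zy24 were 4084, and 3619 to 4142 with a library left out.

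The difference of 1280 in genes present was 1610 at an FPKM of at least 0.1 (exact permutation p = 0.1) and 264.7 at 5 (exact permutation p = 0.2), and 1111.5 to 1400.0 with a library left out. The distance of CZy24 minus LZy24 was 0.683 with a pseudocount of 0.1 and 0.11 as 1 minus Spearman's correlation, and 0.402 to 0.453 with a library left out. Those settings change the scale of the measure itself, and the cause of the other movements was not tested. CZy24 minus Zy24 was 0.138 to 0.262 on the log2 scale. Genes present in 1C and at 0 in CZy24 numbered 772 at a minimum of 1 FPKM, 492 with under 1 FPKM in place of 0 and 260 to 307 with a library left out. The reverse class numbered 267, 186 and 110 to 199, the highest without CZy24 replicate 1. Distances over genes kept by at least 3 of the 12 libraries, distances without mitosis genes and genes near 0, and list counts without CZy24 replicate 2 or under other scalings were chosen after seeing the data. The mitosis list gave 14 higher and 1 lower at equal sums. Depth limits genes near 0.0512 to 0.0768 FPKM per fragment and kilobase.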
